A study of Saccharomyces cerevisiae with 64 samples.

Results

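The 43 genes described here are transcribed in the middle and late phases of sporulation in the budding yeast Saccharomyces cerevisiae, when meiotic nuclei divide and are packed into spores. They were taken as a named list, and all 43 were found by symbol among 6002 protein-coding genes on the 16 nuclear chromosomes of the R64 annotation. A gene was counted as occupied in a library when a deposited peak had its midpoint inside the coding region or in the 500 bp before the coding start. By that rule 33 of the 43 genes held a peak in at least 1 of 62 libraries, and 10 held none. Among all coding genes, 67.7% held a peak in at least 1 library.

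Entry into meiosis switches on an early set of genes for DNA replication and recombination. When recombination is complete, the transcription factor Ndt80 turns on the middle genes, which drive the nuclear divisions, the growth of a prospore membrane around each nucleus and then the building of a spore wall of glucan, mannan, chitosan and dityrosine. Set1C methylates histone H3 on lysine 4 at transcribed genes, Bre2 is one of its subunits, and Spp1 is a subunit with a PHD finger that binds methylated lysine 4 and a CXXC zinc finger.

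Chromatin immunoprecipitation followed by sequencing (ChIP-seq) mapped these subunits in SK1 diploids (MATa/alpha, trp1/trp1, ura3/ura3, with leu2 and his4 heterozygous) collected in pre-sporulation medium (SPS) or after transfer to sporulation medium (SPM). In 4 strains the tagged gene was homozygous for a 13xmyc fusion: SPP1, BRE2, SPP1 without its PHD finger and SPP1 without its CXXC domain. Each was sampled once in SPS and once at 0, 2, 4 and 6 h in SPM. In 3 further strains, with HHT1 and HHT2 deleted, all histone H3 came from an HHT2 gene on a CEN-ARS plasmid that also carried HHF2 and TRP1, and Spp1 carried 3xHA. The plasmid H3 was wild type, H3K4R or H3R2A, and each of these strains had 2 libraries at each of 0, 2, 4 and 6 h. A competition series held 8 libraries precipitated for GFP from diploids with 1 SPP1-13xmyc allele and 1 GFP-SPP1 allele under the CUP1-1 promoter, which responds to copper. It also held 10 libraries precipitated for myc, labelled as homozygous for SPP1-13xmyc. In that series both antibodies had 2 libraries at 4.5, 5 and 5.5 h. At 6 and 6.5 h there was 1 GFP library and there were 2 myc libraries per time. Separate cultures are not stated, so the spread between replicates may be technical.

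The lists held 87 to 2119 peaks, with the shorter ones in the competition series. Read counts are not part of them, so the depth is unknown. No peak list of an untagged strain was analysed here, so no background could be set beside the peaks. HHT1, deleted in the 3 histone strains, held a peak in 0 of their 24 libraries and in 18 of 20 libraries of the 4 myc strains. HHT2, deleted from the chromosome but carried on the plasmid, held one in 24 of 24. HHT1 peaks were also missing from all 10 competition Spp1-myc libraries, where no deletion is labelled. Of the 250 pairs of a peak and a sporulation gene in all libraries, 59 (23.6%) involved a peak that another gene also claimed under the same rule.

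Peaks appeared at most of the sporulation genes late in the time course of Spp1-HA with wild-type plasmid H3. In replicate 1 of that strain, 1, 3, 5 and 25 of the 43 genes were occupied at 0, 2, 4 and 6 h. In replicate 2 the numbers were 1, 5, 21 and 25. Both replicates were low at 0 and 2 h and high at 6 h, while at 4 h replicate 2 was high and replicate 1 remained near the earlier times. At 6 h the occupied share was 58.1% in both libraries (Wilson 95% interval 43.3 to 71.6, counting error only), against 16.8% and 7.75% of all coding genes. At 0 h it was 2.33% in both, against 32.8% and 22.7% of all coding genes, so the share of sporulation genes went from below that of all genes to above it. The 2 libraries at 6 h shared 20 genes, 80% of each set, where 6.4% of all coding genes were in both, and the 21 genes of replicate 2 at 4 h included 18 of the 25 in replicate 1 at 6 h. At 4 or 6 h, 30 of the 43 genes were occupied in at least 1 library, against 27.2% of all coding genes, and each of the 30 was occupied at 6 h.

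**Figure D1:**
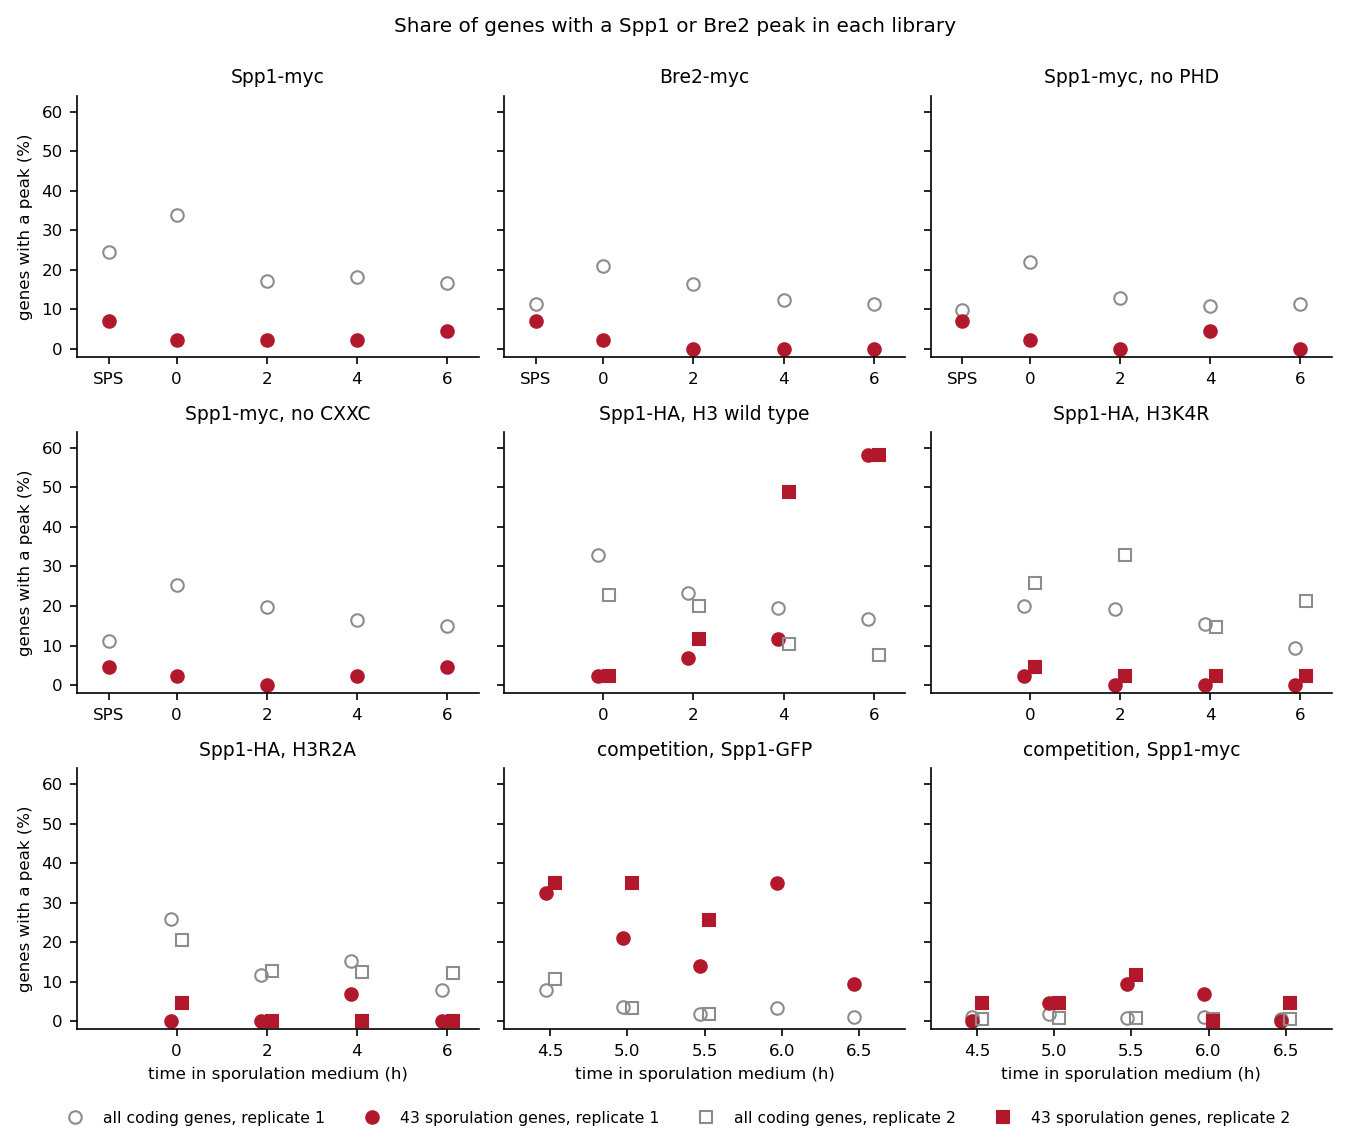
Percent of the 43 sporulation genes (filled) and of all 6002 coding genes (open) with a peak in each library, against time in sporulation medium in hours or in SPS; circles are replicate 1 and squares replicate 2, set slightly apart sideways. The sporulation genes reach 58.1% in both 6 h libraries with wild-type plasmid H3 and stay at 6.98% or less in the 4 myc strains and in both H3 mutants.

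The 4 myc strains did not show this rise. In SPS the 4 strains, in the order Spp1-myc, Bre2-myc, PHD-deleted and CXXC-deleted, had 3, 3, 3 and 2 sporulation genes occupied, and at 0 h in SPM each had 1. At 2 h the numbers were 1, 0, 0 and 0, at 4 h 1, 0, 2 and 1, and at 6 h 2, 0, 0 and 2. Over the 20 libraries 7 of the 43 genes were occupied at least once, against 55.6% of all coding genes. The share of sporulation genes occupied was below that of all coding genes in each of these 20 libraries, where all coding genes ran from 9.96% to 34.0%. In the same 6 h libraries 16, 17, 16 and 19 of 36 early meiotic genes were occupied, a list that shares no gene with the sporulation genes. Spp1-myc held peaks at 1, 5, 10 and 16 of the 36 early meiotic genes at 0, 2, 4 and 6 h in SPM. At the same times Spp1-HA with wild-type plasmid H3 held 5, 18, 20 and 12 in replicate 1 and 3, 31, 21 and 4 in replicate 2. Whether the cultures were at the same stage of meiosis at 6 h was not tested. Spp1-myc and Spp1-HA with wild-type plasmid H3 also differ in tag, antibody and source of histone H3, and the difference at 6 h cannot be told apart from these. With 1 library per time, the myc strains had no replicate check.

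**Figure D2:**
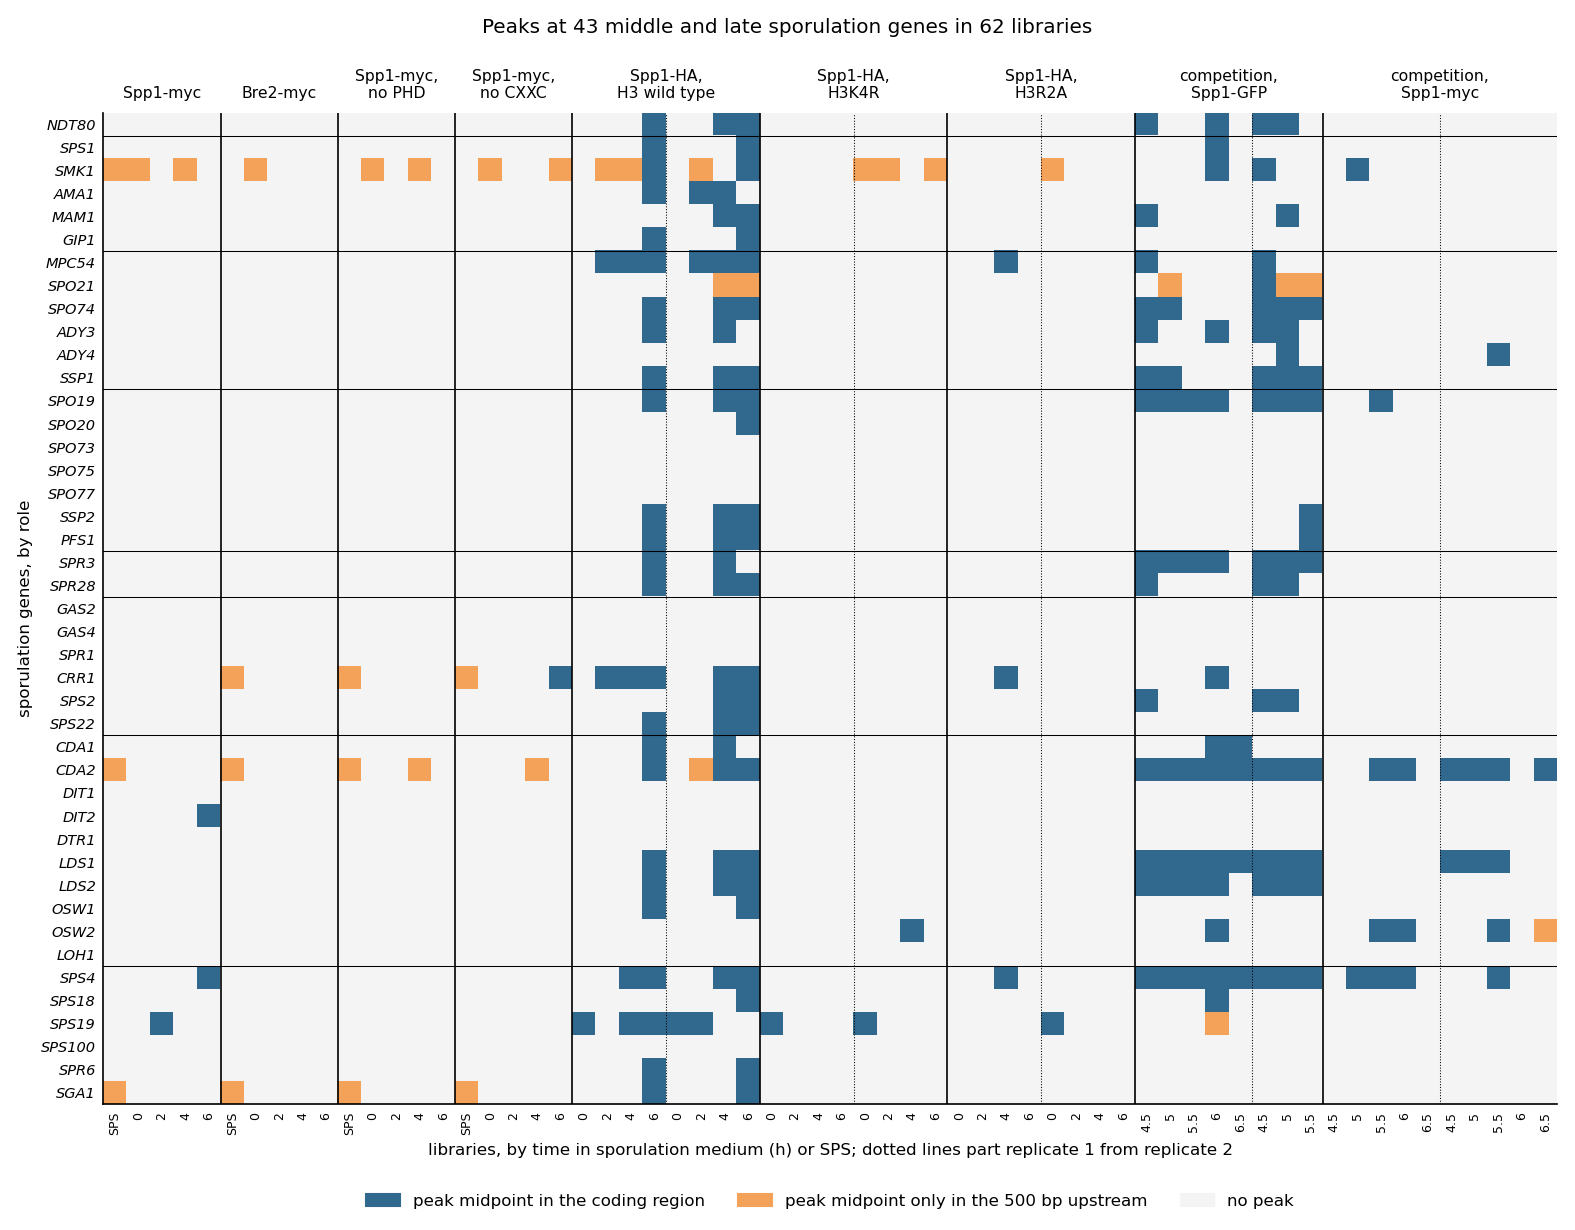
Map of the 43 sporulation genes (rows, grouped by role) against the 62 libraries (columns, by strain, replicate and time in hours or SPS); blue marks a peak midpoint in the coding region, orange one only within 500 bp upstream, and pale no peak. Blue fills the late columns of wild-type plasmid H3 and the Spp1-GFP columns, while the few marks in the myc strains are mostly orange.

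NDT80, the transcription factor gene of the middle phase (chromosome VIII 356561 to 358444), held peaks in 7 libraries, each with one in its coding region. With wild-type plasmid H3 these were both 6 h libraries and replicate 2 at 4 h. In the competition series they were Spp1-GFP at 4.5 h in both replicates, at 5 h in replicate 2 and at 6 h. No library of the myc strains, the H3 mutants or the competition Spp1-myc held a peak there.

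All 5 genes for kinases and cell cycle regulators were occupied at 4 or 6 h with wild-type plasmid H3. SPS1, a protein kinase of spore formation, and GIP1, a meiotic regulatory subunit of protein phosphatase, held a peak in both 6 h libraries. AMA1, a meiotic activator of the anaphase-promoting complex, held one in 3 of the 8 libraries of that strain, at 2 h in 1 of them. MAM1, a monopolin subunit that holds sister kinetochores together, held one in replicate 2 at 4 and 6 h and in 2 Spp1-GFP libraries. SMK1, the sporulation MAP kinase, stood apart, with peaks in 20 libraries spread over all 9 strains. In the myc strains they were Spp1-myc in SPS and at 0 and 4 h, Bre2-myc at 0 h, the PHD deletion at 0 and 4 h and the CXXC deletion at 0 and 6 h. With wild-type H3 they were both replicates at 2 and 6 h and replicate 1 at 4 h. In the H3 mutants all were of replicate 2, H3K4R at 0, 2 and 6 h and H3R2A at 0 h. In the competition series they were Spp1-GFP at 6 h and at 4.5 h in replicate 2, and Spp1-myc at 5 h in replicate 1. In 5 of the 20 a midpoint lay within its coding region (chromosome XVI 666280 to 667446), in both 6 h libraries with wild-type H3 and in 3 competition libraries. The other peaks lay 402 to 500 bp upstream, at the edge of the window, and of its 22 peaks 20 were also counted for a neighbour, mostly NHP6A. A further 6 peaks lay just beyond the edge, at 515 to 529 bp. They were wild-type H3 at 0 h in both replicates and at 6 h in replicate 1, and replicate 1 of H3K4R at 0 h and of H3R2A at 0 and 4 h. The split between the mutant replicates thus rests in part on the edge of the window.

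Of the 6 genes for the spindle pole and the leading edge of the prospore membrane, 5 were occupied with wild-type plasmid H3 at 4 or 6 h. MPC54, a component of the meiotic outer plaque of the spindle pole body (chromosome XV 665785 to 667179), held a peak in all 6 libraries of that strain from 2 to 6 h and in neither at 0 h. Its peaks had midpoints 301 to 676 bp into the coding region. It also held 1 peak in H3R2A, at 4 h in replicate 1, and 1 in each Spp1-GFP library at 4.5 h. SPO74, of the outer plaque, and SSP1, of the leading edge coat, had the same pattern as each other. Both were occupied in both 6 h libraries and in replicate 2 at 4 h with wild-type H3, and in Spp1-GFP at 4.5 and 5 h in both replicates and at 5.5 h in replicate 2. ADY3, which takes part in the leading edge and in spore wall formation, was occupied in 2 wild-type H3 and 4 Spp1-GFP libraries. SPO21, of the outer plaque, was occupied in 6 libraries, but in only 1 of them within the coding region. ADY4, also of the outer plaque, held a peak in 1 Spp1-GFP and 1 competition Spp1-myc library and in none of the others.

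Prospore membrane genes were divided between occupied and unoccupied. SPO19, a gene for a membrane protein of the prospore (chromosome XVI 304387 to 305058), held a coding peak in 11 libraries. They were both 6 h libraries and replicate 2 at 4 h with wild-type H3, all Spp1-GFP libraries except that at 6.5 h and competition Spp1-myc at 5.5 h in replicate 1. SSP2, which activates the Smk1 kinase, and PFS1, required for prospore membrane formation, were occupied in the same 3 wild-type H3 libraries and in Spp1-GFP at 5.5 h in replicate 2. SPO20, a SNARE protein for vesicle fusion, was occupied in 1 library, and SPO73, SPO75 and SPO77 in none. Both septin genes were occupied. SPR3 (chromosome VII 607563 to 609101) was occupied in 2 wild-type H3 libraries, replicate 2 at 4 h and replicate 1 at 6 h, and in 7 of 8 Spp1-GFP libraries, all but that at 6.5 h, and SPR28 in 3 of each.

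Genes of the glucan and mannan layers were occupied in 3 of 6 cases. CRR1, a glycosidase of the spore wall (chromosome XII 566654 to 567922), held a peak in 11 libraries. In the wild-type H3 strain it was occupied in both replicates at 4 and 6 h and in replicate 1 at 2 h. It was also occupied in H3R2A at 4 h in replicate 1 and in Spp1-GFP at 6 h. In Bre2-myc and both domain mutants its SPS peaks lay 366 to 391 bp upstream and were shared with FRE1, a ferric reductase gene. In CXXC-deleted Spp1 at 6 h its peak lay near the end of the coding region and was shared with TUB4. SPS2 and SPS22, cell wall proteins needed for the glucan layer, held peaks in 5 and 3 libraries. GAS2 and GAS4, glucan-remodelling enzymes, and SPR1, a glucanase, held none.

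Among the 10 genes for the chitosan and dityrosine layers, CDA2, a chitin deacetylase that makes chitosan (chromosome XII 747937 to 748875), was occupied in the most libraries of any sporulation gene, 23. Its 8 Spp1-GFP libraries, 6 competition Spp1-myc libraries and 3 late wild-type H3 libraries had the midpoint in the coding region. The Spp1-myc libraries were replicate 1 at 5.5 and 6 h and replicate 2 at 4.5, 5, 5.5 and 6.5 h, and the wild-type ones both replicates at 6 h and replicate 2 at 4 h. The other 6 libraries had it upstream. They were SPS of Spp1-myc, Bre2-myc and the PHD deletion, both domain deletions at 4 h, and wild-type H3 at 2 h in replicate 2. CDA1, its neighbour and a chitin deacetylase too, was occupied in 4. LDS1 and LDS2, lipid droplet proteins of spore wall assembly, were occupied in 14 and 10 libraries, all in the coding region. Each was occupied in both 6 h libraries and in replicate 2 at 4 h with wild-type H3. In Spp1-GFP, LDS1 was occupied in 8 of 8 libraries and LDS2 in 7 of 8. Competition Spp1-myc had LDS1 in 3 of 10, all of replicate 2 from 4.5 to 5.5 h, and LDS2 in 0 of 10. OSW1, an outer spore wall protein, was occupied only in the 2 wild-type H3 libraries at 6 h, and OSW2, of the same layer, in 6 libraries but in none with wild-type H3. DIT2, a cytochrome P450 of dityrosine synthesis, held a peak only in Spp1-myc at 6 h, and DIT1, the other enzyme of that pathway, DTR1, a dityrosine precursor exporter, and LOH1 held none.

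The last 6 genes are metabolic or have other functions in the spore. SPS4 (chromosome XV 901858 to 902874) held a coding peak in 18 libraries. They were all 4 wild-type H3 libraries at 4 and 6 h, 8 of 8 Spp1-GFP, 4 of 10 competition Spp1-myc (replicate 1 at 5, 5.5 and 6 h and replicate 2 at 5.5 h), Spp1-myc at 6 h and H3R2A at 4 h in replicate 1. SPS4 thus overlapped fully between wild-type H3 at late times and Spp1-GFP, and 13 of its 18 peaks were also counted for YOR314W, which overlaps it. SPS19, a peroxisomal reductase of fatty acid breakdown (chromosome XIV 259578 to 260456), ran differently. It held a peak in 5 of the 6 libraries of the H3 strains at 0 h, both of wild-type H3, both of H3K4R and replicate 2 of H3R2A. Later it was occupied with wild-type H3 in replicate 2 at 2 h and in replicate 1 at 4 and 6 h, and in no H3 mutant library. It also held 1 peak in Spp1-myc at 2 h and 1, upstream, in Spp1-GFP at 6 h. SPS18, which lies head to head with SPS19, was occupied in 2 libraries and SPR6 in 2. SGA1, a glucoamylase that breaks down glycogen, held a peak in the SPS library of all 4 myc strains and in both wild-type H3 libraries at 6 h. SPS100, a late spore wall protein, held none.

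For the 10 genes without a peak, 0 libraries had a peak that overlapped the coding region by even 1 bp. The nearest midpoint in any library lay 354 bp from SPO77 and 1124 bp from SPO75, with the other 8 in between. Their median coding length was 1425 bp, against 1269 bp for the 33 occupied genes and 1200 bp for all coding genes. A gene without a called peak may still be bound below the unstated threshold of the peak lists.

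With wild-type plasmid H3 at late times and in Spp1-GFP, most peaks at the sporulation genes lay in the early part of the coding region. With wild-type H3 at 4 and 6 h, 51 of 87 peaks (58.6%, Wilson 95% interval 48.1 to 68.4) lay in the part nearest the coding start when the coding region was cut into 3 equal parts, against 31.7% of 4082 at all other genes. In the distal part were 5.75% at the sporulation genes and 26.0% at the others. The other genes of that strain changed with time. At 0 and 2 h the part nearest the start held 46.1% of their 6529 peaks and the distal part 10.6%, and at 6 h these were 26.1% and 34.7% of 1956. Part of the late contrast thus lies in the other genes. The sporulation genes had 40% of only 10 peaks in the part nearest the start at 0 and 2 h. In the Spp1-GFP libraries the proximal part held 70.5% of 95 peaks, against 46.0% of 2113 at other genes. Counted in bp, the median coding midpoint was 332.5 bp from the coding start with wild-type H3 at 4 and 6 h, nearer than the 410 bp at other genes. In Spp1-GFP it was 287 bp, farther than the 254 bp at other genes. The competition Spp1-myc libraries, also late, had 36.4% of 22 peaks in the part nearest the start, 36.4% in the middle part and 22.7% in the distal part, with a median of 534 bp. At other genes in those libraries the nearest part held 29.7% of 573 peaks and the median was 718 bp. In the 4 myc strains, by contrast, 20 of 25 peaks (80%) lay upstream, against 16.1% of 22936 at other genes. All 20 were at SMK1, CDA2, SGA1 and CRR1, so this share describes few genes. In the myc strains these genes were occupied in 8, 5, 4 and 4 libraries, for CRR1 with 1 in the coding region. Peaks in neighbouring libraries fall at the same genes, so these shares are descriptions without a test, and the intervals cover counting error only.

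**Figure D3:**
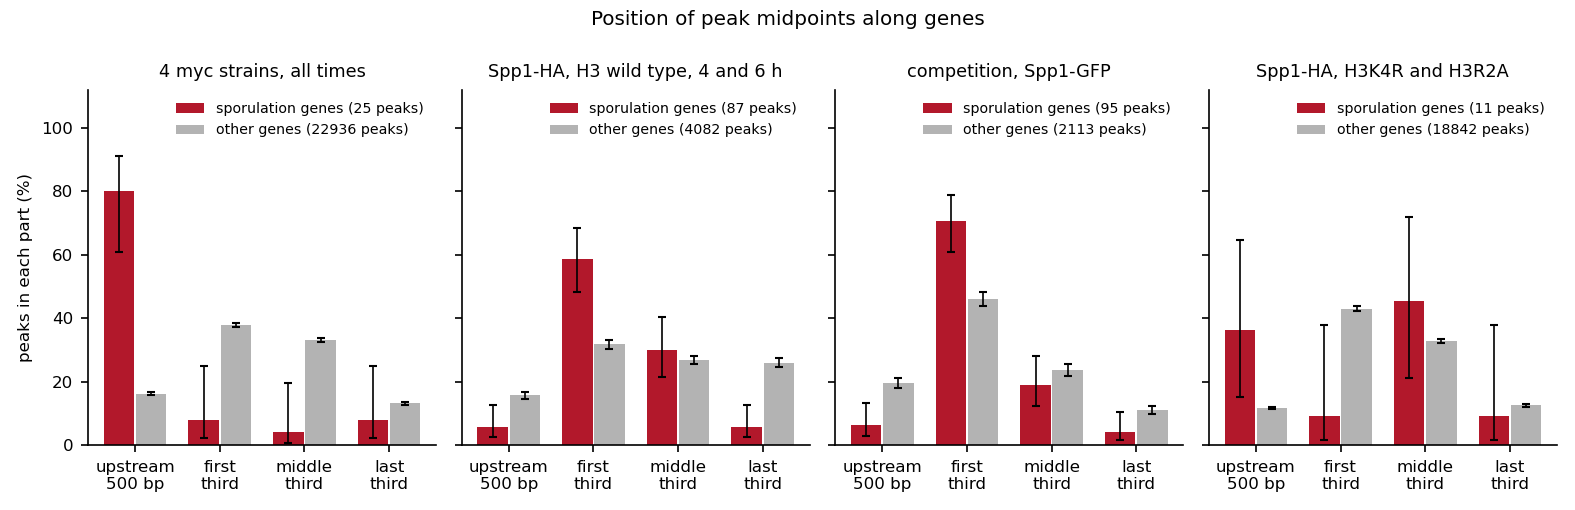
Percent of peak midpoints in the 500 bp upstream and in each of 3 equal parts of the coding region, for the sporulation genes (red) and all other genes (grey), in 4 sets of libraries; error bars are Wilson 95% intervals over peaks. The proximal part is the tallest red bar with wild-type H3 at 4 and 6 h (58.6%) and in Spp1-GFP (70.5%). In the myc strains it is the upstream part (80%), with those peaks at SMK1, CDA2, SGA1 and CRR1 alone.

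H3K4R, in which lysine 4 cannot be methylated, and H3R2A, in which arginine 2 is replaced, were each set beside wild-type plasmid H3. Both comparisons share the 8 wild-type H3 libraries and are not independent. In H3K4R, 1, 0, 0 and 0 sporulation genes were occupied in replicate 1 at 0, 2, 4 and 6 h, and 2, 1, 1 and 1 in replicate 2. In H3R2A the numbers were 0, 0, 3 and 0 in replicate 1 and 2, 0, 0 and 0 in replicate 2. Over the 16 mutant libraries 6 of the 43 genes were occupied at least once, against 49.5% of all coding genes. Of 36 early meiotic genes, the H3K4R libraries held peaks at 1 to 2, those of H3R2A at 0 to 17 with a median of 2, and those of wild-type H3 at 3 to 31 with a median of 15. How far the mutants had progressed in meiosis was not tested, and a difference in progress cannot be told apart from the histone change. At 6 h, both wild-type libraries with 25 lay far above the 4 mutant libraries with 0 or 1, and at 0 h the groups overlapped. The mean per library was 0.75 ± 0.707 (SD, n = 8) in H3K4R, 0.625 ± 1.19 (SD, n = 8) in H3R2A and 10.8 ± 10.9 (SD, n = 8) with wild-type H3, whose large spread comes from pooling the times.

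Of the 43 genes, 30 had a peak in fewer H3K4R than wild-type libraries, 1 in more and 12 in as many, where 23% of all coding genes were in fewer and 24% in more. In H3R2A, 30 had a peak in fewer libraries than with wild-type H3, 0 in more and 13 in as many, where 30.1% of all coding genes were in fewer and 13.7% in more. The gene with more H3K4R libraries was OSW2, with 1 of 8 against 0 of 8. The median difference in the share of libraries was -25 percentage points for the sporulation genes in each comparison and 0 for all coding genes. Gene by gene, a two-sided Fisher's exact test, with p adjusted by the Benjamini-Hochberg method, called 0 of the 43 in H3K4R, where it called 0% of 3382 genes tested, with 5.82% of them, 197, and 2 of the 43 at an unadjusted p under 0.05. It called 0 of the 43 in H3R2A as well, where it called 0% of 3183, with 2.73% of them, 87, and 1 of the 43 at an unadjusted p under 0.05. SPS4, with a peak in all 4 late wild-type libraries and no H3K4R library, had an unadjusted p of 0.0769 by the exact test. A gene occupied with wild-type H3 only at 4 and 6 h could thus not be called lower in either comparison.

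Setting both mutants from 2 to 6 h against wild-type H3 at the same times (12 against 6 libraries) gave 0.5 ± 0.905 genes (SD, n = 12) against 14 ± 10.7 (SD, n = 6). This pooling was chosen because the comparisons of each mutant alone could hardly pass over all genes, while pooled libraries reach smaller p. Each group mixes times, and the first mixes both mutants, so the SDs are not a spread between replicates. The exact test treats these libraries as independent. The mutant libraries had 0 to 3, with a median of 0, and the wild-type libraries 3 to 25, with a median of 13, so the groups met at 1 value. The mutant library with 3 was H3R2A replicate 1 at 4 h, where MPC54, CRR1 and SPS4 were occupied, and in the same library 17 of 36 early meiotic genes were occupied, against 0 to 4 in the other 7 H3R2A libraries. Again 30 of the 43 were in a smaller share of mutant libraries, 1 in a larger and 12 in the same, against 22.4% and 23.8% of all coding genes. The exact test after Benjamini-Hochberg adjustment called 0 of the 43 and 0% of 3017 genes tested. At an unadjusted p under 0.05 were 17 of the 43, beside 10.6% of the genes tested.

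MPC54 stood at 1 of 12 mutant and 6 of 6 wild-type libraries (exact test, adjusted p = 0.0711), an adjusted value it shared with other genes, 1 of which had a lower unadjusted p. Over 15 alternatives its adjusted p by the exact test ran from 0.0288 to 0.43, and it passed in 3 and failed in 12. The 3 were only the peaks scoring above the median of each list (exact test, adjusted p = 0.0385), lists of equal size (exact test, adjusted p = 0.0288) and the comparison without H3R2A replicate 1, where it stood at 0 of 9 against 6 of 6 (exact test, adjusted p = 0.0313). In those 3 settings 0.435%, 0.601% and 0.268% of the genes tested were called lower, and MPC54 was the single sporulation gene among them. CRR1 stood at 1 of 12 against 5 of 6 (exact test, adjusted p = 0.15), CDA2 at 0 of 12 against 4 of 6 (exact test, adjusted p = 0.152) and SMK1 at 2 of 12 against 5 of 6 (exact test, adjusted p = 0.243). SPS4 stood at 1 of 12 against 4 of 6 (exact test, adjusted p = 0.272). NDT80, SPO74, SSP1, SPO19, LDS1 and LDS2 were each at 0 of 12 against 3 of 6, with that same adjusted p. SPO19 changed direction when the window was 1000 bp upstream, with a share of libraries 33.3 percentage points higher in the mutants.

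At 6 h alone, 19 of the 43 genes held a peak in both wild-type H3 libraries and in none of the 4 mutant libraries, where 2.2% of all coding genes did. They were NDT80, SPS1, GIP1, MPC54, SPO74, SSP1, SPO19, SSP2, PFS1, SPR28, CRR1, SPS22, CDA2, LDS1, LDS2, OSW1, SPS4, SPR6 and SGA1, with SPO19 counted here under the 500 bp window. When every list was cut to its 642 highest-scoring peaks, the length of the shortest, the wild-type libraries at 6 h held 15 and 25 sporulation genes and the 4 mutant libraries held 0.

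**Figure D4:**
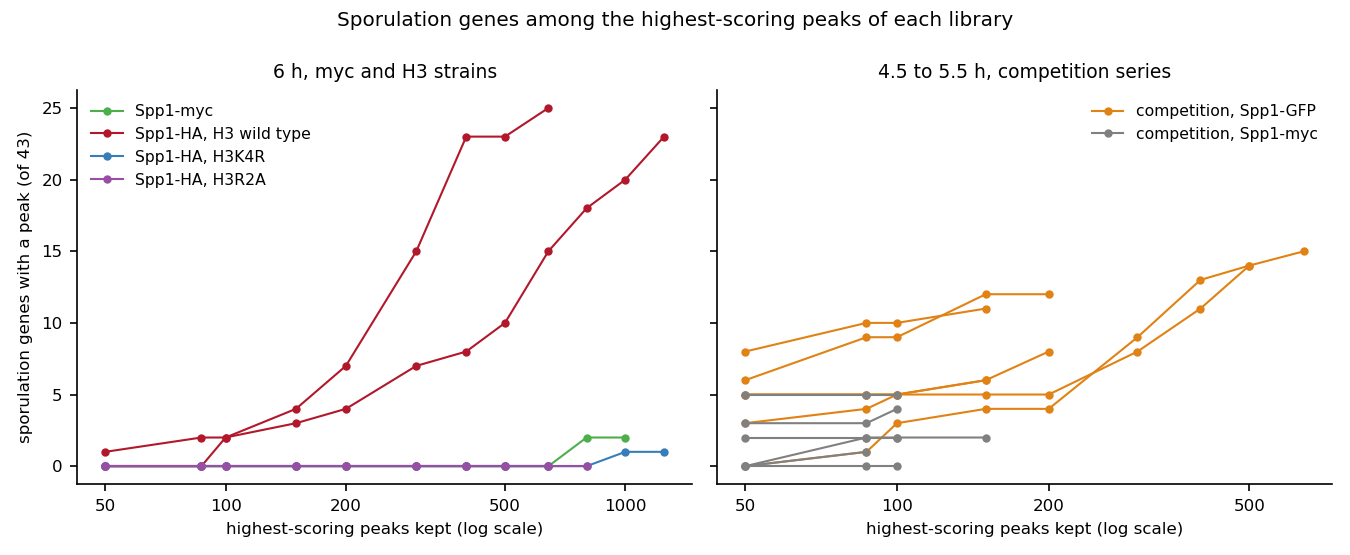
Number of the 43 sporulation genes with a peak (vertical axis) among the highest-scoring peaks of each library (horizontal axis, log scale), with 1 line per library; left, 6 h libraries of Spp1-myc and the H3 strains, and right, competition libraries at 4.5 to 5.5 h. At 642 peaks the 2 wild-type H3 lines are at 15 and 25 and the mutant lines at 0, while in the competition series the lines of both antibodies overlap at 100 peaks and below.

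Time was tested over the 5 strains with unmutated H3, with 12 libraries at 4 and 6 h against 12 at 0 and 2 h in SPM. The later libraries held 0 to 25 sporulation genes with a median of 2, and the earlier ones 0 to 5 with a median of 1, so the groups overlapped. The means were 7 ± 10.2 (SD, n = 12) and 1.25 ± 1.42 (SD, n = 12), and without the wild-type plasmid H3 strain the difference went from 5.75 genes to 0.375. More of the later libraries held a peak at 29 of the 43 genes, fewer at 1 and as many at 13, against 15.1% and 39.8% of all coding genes. The exact test after Benjamini-Hochberg adjustment called 0 of the 43, where it called 0.0278% of 3595 genes as higher and 0.25% as lower. The single gene called higher was FKS3, a glucan synthase homologue outside the list (12 of 12 against 2 of 12, exact test, adjusted p = 0.0346). It was named after its values were seen, and no gene was called higher when any 1 of the 5 strains was left out. SPS4 came nearest among the sporulation genes, at 5 of 12 against 0 of 12 (exact test, adjusted p = 0.207).

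The competition series set libraries precipitated for GFP beside libraries precipitated for myc from 4.5 h on, with different labelled genotypes. Spp1-GFP replicate 1 held peaks at 14, 9, 6, 15 and 4 of the sporulation genes at 4.5, 5, 5.5, 6 and 6.5 h, and replicate 2 at 15, 15 and 11 at 4.5, 5 and 5.5 h. Competition Spp1-myc held 0, 2, 4, 3 and 0 in replicate 1 and 2, 2, 5, 0 and 2 in replicate 2. At 4.5 to 5.5 h every GFP library, with 6 to 15, was above every myc library, with 0 to 5. In the GFP libraries 9.30% to 34.9% of the sporulation genes were occupied, against 1.08% to 10.7% of all coding genes. In the myc libraries these shares were 0% to 11.6% and 0.5% to 1.72%. At 4.5 to 5.5 h, 5.55 ± 3.1% (SD, n = 6) of nuclear peaks per GFP library lay at sporulation genes. For the myc libraries at those times the share was 4.63 ± 3.5% (SD, n = 6), so by this measure the antibodies overlapped. At least 1 GFP library held a peak at 25 of the 43 genes, against 13.9% of all coding genes, and at least 1 myc library at 7, against 4.08%. CDA2, LDS1 and SPS4 were occupied in all 8 GFP libraries, as were 0.217% of all coding genes. Early meiotic genes went from 23 and 20 of 36 at 4.5 h to 2 and 1 at 5.5 h in the same libraries. The share of all coding genes fell as well, from 7.85% and 10.7% at 4.5 h to 1.8% and 1.85% at 5.5 h.

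The mean at 4.5 to 5.5 h was 11.7 ± 3.67 genes (SD, n = 6) for Spp1-GFP and 2.5 ± 1.76 (SD, n = 6) for Spp1-myc. GFP lists were longer, and in lists of equal size, with the 96 highest-scoring peaks each, the difference fell from 9.17 to 3.17 genes. That cut also counted peaks on a sequence named chrXVII, which cannot be assigned to a gene. Before it, nuclear peaks numbered 113 to 670 in GFP lists of 155 to 705 peaks, and 49 to 110 in myc lists of 96 to 166. The lists of equal size may thus differ in peaks that a gene can hold. Of the 43 genes, 17 were in more GFP libraries, 1 in fewer and 25 in as many, against 12.6% and 1.45% of all coding genes. The gene in fewer was OSW2. The exact test after Benjamini-Hochberg adjustment called 0 of the 43 and 0% of 870 genes tested, and 3.33% of these, 29, among them 5 of the 43, had an unadjusted p under 0.05. SPR3 and LDS2 were at 6 of 6 against 0 of 6 (exact test, adjusted p = 0.171), the largest split the 12 libraries allow. SPO74 and SSP1 were at 5 of 6 against 0 of 6, and SPO19 at 6 of 6 against 1 of 6 (exact test, adjusted p = 0.455 for each). Over all 8 GFP and 10 myc libraries, 9 genes (0.968% of 930 tested) passed and all were higher in GFP, SPR3 and LDS2 among them, each at 7 of 8 against 0 of 10 (exact test, adjusted p = 0.026). The groups differ in antibody, in the labelled SPP1 alleles and in the promoter of GFP-SPP1. None of these can be told apart from the difference between the proteins.

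Sets occupied in the 2 series overlapped. Of the 30 genes with a peak at 4 or 6 h with wild-type H3, 23 (76.7%) also held one in a Spp1-GFP library, and these were 92% of the 25 genes that did. Of all coding genes, 27.2% held a peak in the first set of libraries and 13.9% in the second. Their overlap was not counted, so 76.7% and 92% cannot be set against a share over all genes. The 8 genes in 5 or more GFP libraries were all occupied with wild-type H3 at 6 h in replicate 1, and 7 of them, without SPR3, in replicate 2: CDA2, LDS1, SPS4, SPO19, SPR3, LDS2, SPO74 and SSP1. At CDA2 the peaks of Spp1-GFP were 501 to 901 bp wide and ranked between the 81.7 and 99.2 percentile of their library by score. At SPS4 they were 201 to 601 bp wide and lay at the 69.0 to 100 percentile.

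Other genes of the same programme were set beside the list. Of 29 other middle-phase genes, 16 and 11 were occupied in the 2 wild-type H3 libraries at 6 h, and 0 to 3 in the 4 mutant libraries. In H3K4R 17 of the 29 were in fewer libraries and 2 in more, and in H3R2A 16 and 4. The 4 occupied in most libraries were FMP45 with 30, SWM1 with 26, SSO1 with 22 and DON1, of the leading edge coat, with 15. FMP45 and SSO1 ran against the sporulation genes, with 10 and 12 of 16 H3 mutant libraries and 1 of 4 late wild-type ones each. DON1 was in 4 of 4 late wild-type libraries and 1 of 16 mutant ones. Of 36 early meiotic genes, 31 were in fewer H3K4R libraries and 31 in fewer H3R2A libraries, and 0 in more in either. RIM4 was in 43 libraries, IME1 in 33, SLZ1 in 29 and IME2 in 20, the most of that list. Of 14 regulators of the middle genes, 9 and 10 were in fewer, and 3 and 2 in more. RIM4 and IME1 are on that list too, and RIM101 with 33 and HST1 with 28 followed them. The exact test after Benjamini-Hochberg adjustment called 0 genes of these 3 lists in H3K4R and 0 in H3R2A.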

How the data were processed

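Per the submitters' processing notes, BWA and deepTools were used and the genome build was sacCer3. How peaks were called, and against which control, is not given in the sources used here. For each library the authors deposited a list of peaks with positions, widths and a score, a fraction from 0.5 to 1 of unstated normalization. Of 64 samples, 2 had no list and were not analysed here, and 2787 of 56230 peaks lie on a sequence named chrXVII, which holds no annotated nuclear gene. Genes came from the R64 annotation of RefSeq, with the strand from the locus tag. Occupancy per gene was compared by a two-sided Fisher's exact test, with p adjusted by the Benjamini-Hochberg method across genes that had a peak in any compared library (threshold 0.05), in Python 3.11.15 with numpy 2.4.6, scipy 1.17.1 and pandas 2.3.3. It was tested on simulated data. Percentiles rank a peak by its score within its library, with tied scores given their mean rank, while lists cut by score, also at their median, broke ties by width. Counts over the list have no test. In the H3 strains the genotype and antibody give an HA tag on Spp1, whereas the sample descriptions say myc. SPS libraries, labelled 0 h, were kept apart by medium. All 43 genes were accounted for, and the 12 occupied in most libraries were described library by library, apart from the Spp1-GFP library without LDS2. The members, lists and tests were chosen with earlier results of these data known. Alternatives were the window, the overlap rule, the score and list size, the genes tested, exact tests within time or strain, a replicate block, left-out libraries and, chosen after seeing the data, the coding region alone and a crossed block.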

Additional observations from a re-analysis of the deposited data

Results flagged for a closer look

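Of 18 groups of 4 to 10 libraries examined, 4 held a library whose number of occupied sporulation genes passed Dixon's 95% critical value. In each the other 3 libraries were equal and the gap was 1 gene, and any single count that differs from 3 equal ones passes. Chance flags about 1 in 20 groups of continuous values, a rate that does not hold for such tied counts, so no excess is read from the 4. CXXC-deleted Spp1 in SPS had 2 occupied genes where the other 3 myc strains had 3. Spp1-myc at 2 h had 1, SPS19, where the other 3 myc strains had 0. H3K4R replicate 2 had 1, SMK1 by an upstream peak, at 2 h and again 1 at 6 h, where the other 3 H3 mutant libraries at each time had 0.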

How the results depend on the processing

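Both the gene calls and the values for the sporulation genes moved with the settings. For both H3 mutants against wild-type H3 at 2 to 6 h, the genes called went from 0 to 18 with only the peaks above each list's median score, to 27 with equal list sizes, and to between 0 and 19 when a replicate was left out, 19 being without H3R2A replicate 1. The difference in mean occupied sporulation genes went from -13.5 to -9.08 with the peaks above the median score. For time, the 10 genes called became 1 with a 1000 bp window, 6 with equal list sizes and 0 with all coding genes tested, with the exact test within strain, with the replicate block or for 6 h against earlier times. They became 1 without PHD-deleted Spp1 and 0 without any other single strain and, leaving out replicates of wild-type plasmid H3, 0 without replicate 1 and 14 without replicate 2. For the competition series the calls went from 0 to 9 with all libraries, and the difference of 9.17 genes to 6.17 with the peaks above the median score and 3.17 with equal list sizes.

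Occupied sporulation genes per library at 0 and 2 h with wild-type H3 went from 2.5 to 6.25 with the 1000 bp window, 3.5 with any overlap of 1 bp and 1.5 with the peaks above the median score or equal list sizes. In the H3 mutants at 4 and 6 h, 0.625 became 2.625 with the 1000 bp window. In the 4 myc strains at 4 and 6 h, 1 became 2.25 with the 1000 bp window, 0.375 with 250 bp, the peaks above the median score or the coding region alone, and 0.5 with equal list sizes. In Spp1-GFP, 11.1 became 7.5 and 5.5 with the peaks above the median score and equal list sizes. SPO19 changed sign with the 1000 bp window, to differences of 37.5 (H3K4R), 25 (H3R2A), 33.3 (both mutants) and -8.33 (time) percentage points, and SMK1 without H3K4R replicate 1, to 12.5. The cause was not tested.

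Among the main values recomputed under the alternatives, 135 were classed as the same and 31 as moved. Among the other recomputed values, 69 were classed as the same, 4 as moved, 5 as reversed and 5 as stronger. The class of same allows some shift, so it does not mean that a value was unchanged. Libraries of equal replicate number were not treated as pairs in the main tests. Correlations of their deviations ran from -0.106 to -0.0206 for H3K4R and wild-type H3, -0.0299 to 0.243 for H3R2A and wild-type H3, and -0.037 to -0.0154 in the competition series. For H3R2A they were positive at 0, 2 and 4 h. With 2 replicates per time these values cannot settle whether the libraries were paired. The replicate block left the calls at 0 in both H3 mutant comparisons and in the competition series, and a crossed block left them at 0 for H3K4R. Without read counts, depth and peaks below the threshold could not be examined.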
